A study of Homo sapiens with 12 samples.

Results

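Day 36 cells sorted as SCGB3A2+ were compared with day 15 lung progenitors sorted for high CD47 (CD47hi), both derived from RUES2, a human embryonic stem cell line. The members were the arrays with those titles, 3 for day 36 SCGB3A2+ (replicates A, B and C) and 2 for day 15 CD47hi (B and C), which are 5 of the 12 arrays of the series. Per the labels, the line was first turned into definitive endoderm, then anterior foregut and then lung progenitors, which were sorted for CD47 and afterwards kept under low Wnt activity until the day 36 sort. The other groups, used here only to place a value, were day 0 (n = 2), day 22 (n = 2) and the day 36 SCGB3A2- sort (n = 3).

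Time in culture, medium and sort all differ between the 2 groups compared and cannot be told apart. Both groups carry the same genome, since a single line was used, and the labels do not say that replicate letters stand for separate cultures. The p-values therefore rest on a spread between arrays that may be technical. RNA came from sorted populations, so fewer cells of a type and less RNA per cell cannot be told apart for any gene described here.

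The lung arises from ventral foregut endoderm that turns on the transcription factor NKX2-1, and Wnt and FGF signals from the surrounding mesenchyme support that step. The early epithelium then divides into airway, which makes secretory, ciliated and basal cells, and alveoli, which make surfactant-secreting type 2 and flat type 1 cells. SCGB3A2 is a small secreted protein of the secretoglobin family that appears early in airway secretory cells, whose classic product in the mature airway is its relative SCGB1A1. CD47 is a surface protein that is high on NKX2-1+ progenitors made from pluripotent cells.

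Levels are RMA log2 values, in which 1 unit is a 2-fold difference, and they ran from 0.265 to 12.3. Differences are SCGB3A2+ minus day 15, as log2 differences of group means ± the standard error (SE) of the fit, and a probe set passed at a limma adjusted p under 0.05 over all 23786 probe sets. The 2 day 15 arrays correlated at r = 0.991 across probe sets and the 3 SCGB3A2+ arrays at 0.985 to 0.987, against 0.915 to 0.93 between the groups, and probe sets are not independent replicates.

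In all, 6819 probe sets passed, 28.7% of those tested. Of these 2968 (12.5%) were higher and 3851 (16.2%) lower in SCGB3A2+ cells, while the median over all probe sets was 0. A change of at least 2-fold was passed upward by 1397 (5.87%) and downward by 1489 (6.26%). Changes of at least 16-fold were mostly increases, with 124 probe sets higher (0.521%) and 25 lower (0.105%). All 3 SCGB3A2+ arrays lay above both day 15 arrays for 5765 probe sets (24.2%) and below both for 6616 (27.8%).

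**Figure D1:**
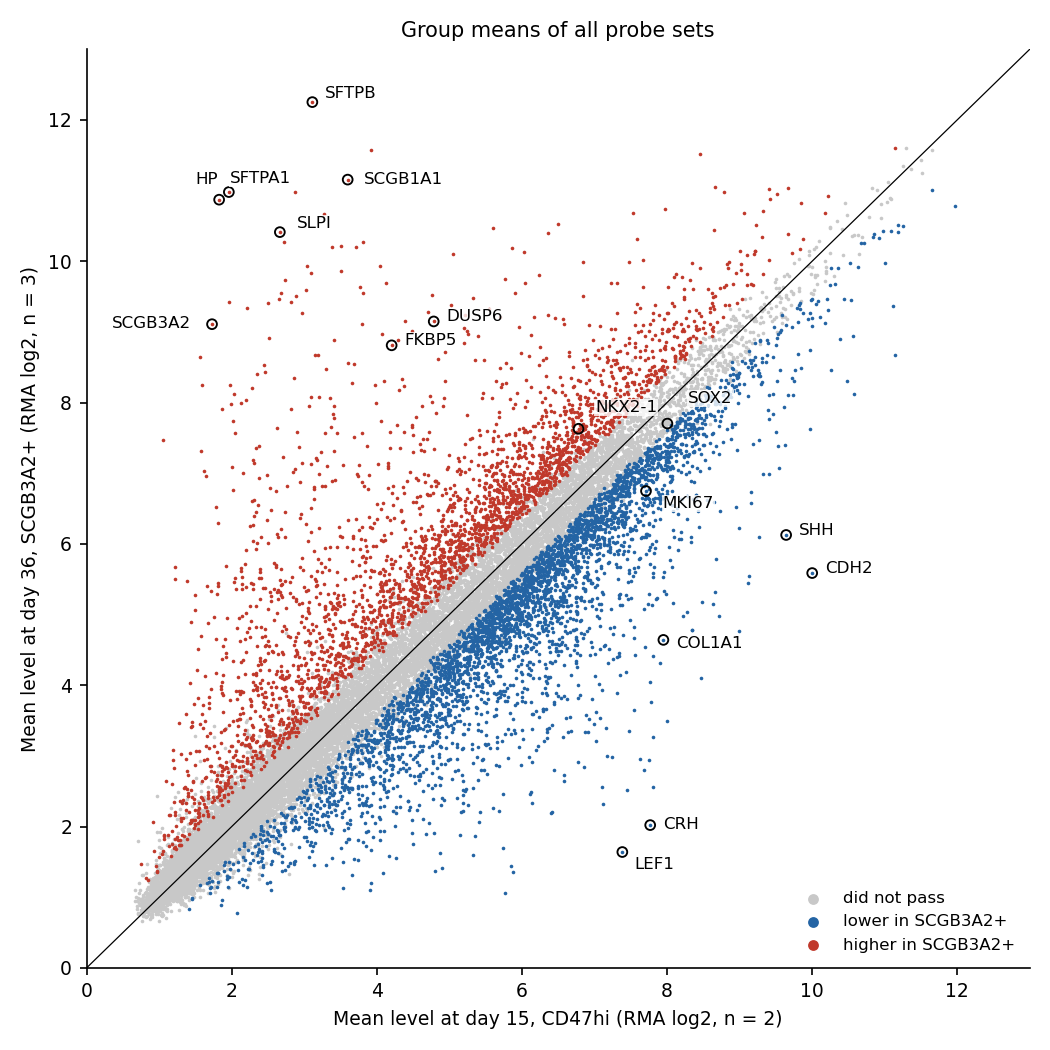
Mean RMA log2 level of each probe set at day 15 (x axis, n = 2) against day 36 SCGB3A2+ (y axis, n = 3), with probe sets past the threshold in red (higher) or blue (lower), the rest in grey, and the line of equal level. The circled genes show the increases of SFTPB, SFTPA1, HP, SCGB1A1 and SCGB3A2 far above the line, NKX2-1 and SOX2 near it, and LEF1, CRH, CDH2, SHH and COL1A1 far below it.

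The 2 largest increases were those of surfactant protein genes, and plasma protein genes came next. SFTPB, which encodes the surfactant protein B made by both alveolar type 2 and airway secretory cells, stood at 3.10 and 3.12 on the day 15 arrays and at 12.26, 12.20 and 12.302 on SCGB3A2+ A, B and C. Its difference was 9.14 ± 0.14 (adjusted p = 1.03e-11). SFTPA1, the gene of surfactant protein A, had values of 1.60 and 2.06 at day 15 and of 10.95, 10.59 and 11.08 in SCGB3A2+ cells (9.04 ± 0.40). All SCGB3A2+ arrays were far above both day 15 arrays for both genes, and the arrays of a group lay close together for SFTPB.

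SCGB3A2 itself rose from 1.998 and 1.459 to 9.04, 9.39 and 8.89 (7.38 ± 0.24, adjusted p = 5.33e-09). The day 36 sort is named for this gene, so this rise checks the label and is not a finding. The labels do not say how the cells were recognised. The day 0 arrays stood at 7.24 and 7.05 for SCGB3A2, above both day 15 arrays and below the SCGB3A2+ ones. SCGB1A1, the club cell secretoglobin, went from 3.69 and 3.50 to 10.45, 11.39 and 11.62 (7.56 ± 0.51). SCGB3A1, a secretoglobin of the larger airways, stayed at 2.30 and 2.14 against 2.47, 2.55 and 2.02 (0.12 ± 0.19, adjusted p = 0.712, 95% interval -0.29 to 0.54), so the 3 secretoglobins did not move alike.

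The stretches of 250 bases before the annotated starts of SFTPB, SCGB3A2 and SFTPA1 are printed because NKX2-1 and FOXA proteins are textbook regulators of surfactant and secretoglobin genes and because SFTPB and SFTPA1 had the 2 largest increases, while SCGB3A2 is the gene of the sort. They come from the RefSeq promoter table on GRCh38.p14, which lists 2 starts for SFTPB, of which 1 is shown. Capitals mark a short NKX2-1 core, TCAAG, and FOXA-type motifs (the spellings TGTTTAC plus TGTTTGC plus TGTTTGT plus TATTTAC plus TATTTGC), each on either strand, and neither kind of motif holds the other.
SFTPB, chr2:85668200-85668449, minus strand: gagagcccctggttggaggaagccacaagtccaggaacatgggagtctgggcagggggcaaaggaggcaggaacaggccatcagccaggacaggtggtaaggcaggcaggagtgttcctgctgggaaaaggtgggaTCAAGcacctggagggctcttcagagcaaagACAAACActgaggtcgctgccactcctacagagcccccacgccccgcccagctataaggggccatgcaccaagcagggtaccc
SCGB3A2, chr5:147878461-147878710, plus strand: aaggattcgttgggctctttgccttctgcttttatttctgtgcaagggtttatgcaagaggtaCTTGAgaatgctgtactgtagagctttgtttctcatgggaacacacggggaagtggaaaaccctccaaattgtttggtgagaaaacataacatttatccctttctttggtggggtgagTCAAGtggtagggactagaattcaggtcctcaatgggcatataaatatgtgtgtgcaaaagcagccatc
SFTPA1, chr10:79610689-79610938, plus strand: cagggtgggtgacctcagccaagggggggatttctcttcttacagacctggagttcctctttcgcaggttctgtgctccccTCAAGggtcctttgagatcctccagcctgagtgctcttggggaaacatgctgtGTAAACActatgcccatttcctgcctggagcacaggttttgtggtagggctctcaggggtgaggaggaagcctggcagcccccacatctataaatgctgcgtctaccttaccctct
SFTPB and SFTPA1 each held 1 core and 1 FOXA-type motif, and SCGB3A2 held 2 cores and 0 FOXA-type motifs. The core stood in 29.2% of all 35116 promoters listed, a FOXA-type motif in 14.2% and both in 5.18%. Of the 15 genes with the largest increases 7 matched the table, 5 of them with the core and 4 with a FOXA-type motif, and of the 15 with the largest decreases 9 matched, 3 with the core and 3 with a FOXA-type motif. A gene was counted if any of its listed promoters held the motif, while the shares over the table are per promoter. A gene with several starts has more chances, so the counts and the shares are not alike. Such a match describes the letters of the window and not a bound site.

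Haptoglobin and albumin had the third and the fourth largest increase. HP, the gene of the haemoglobin-binding plasma protein haptoglobin, went from 2.23 and 1.69 to 11.45, 10.86 and 10.63 (9.02 ± 0.48). ALB, the main plasma protein of liver, went from 2.79 and 2.95 to 10.66, 11.11 and 11.18 (8.11 ± 0.26). Both genes were low on both day 15 arrays and high on all 3 SCGB3A2+ arrays. SULF1, a sulfatase that trims heparan sulfate, rose by 7.40 ± 0.32, MSMB, a secreted protein of prostate and airway mucosa, by 7.07 ± 0.50, and SLC34A2, the phosphate transporter of type 2 cells, by 7.01 ± 0.36. CP, the copper-binding plasma protein ceruloplasmin, had 10.66 and 10.86 on SCGB3A2+ A and B but 8.26 on C, all above its day 15 values of 2.96 and 3.11 (6.89 ± 0.58).

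**Figure D2:**
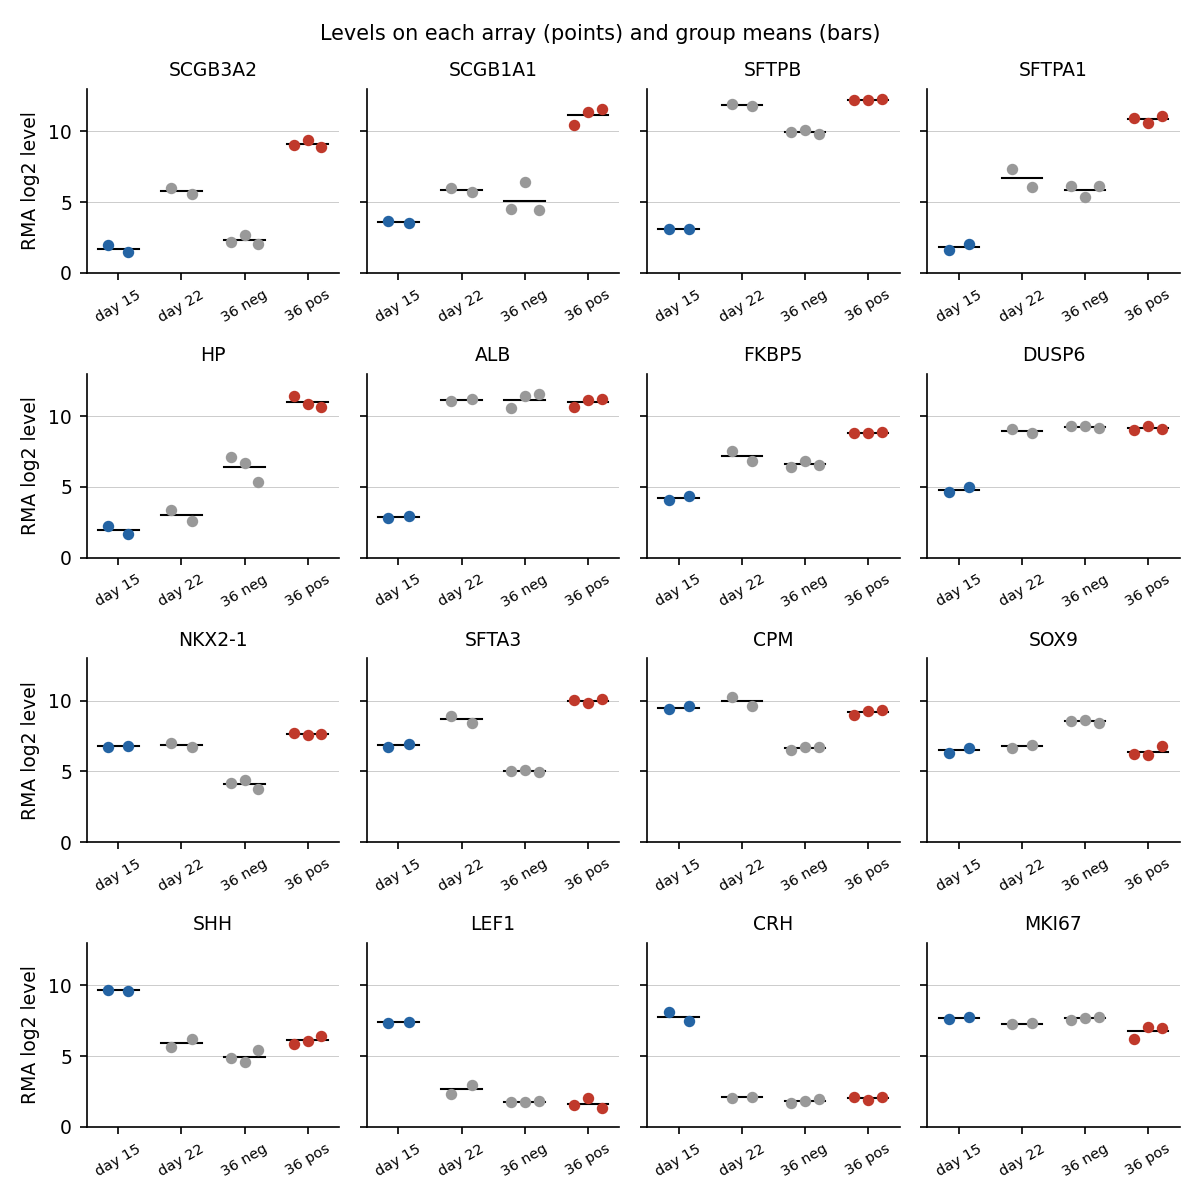
RMA log2 level (y axis) of 16 genes on each day 15, day 22, day 36 SCGB3A2- (36 neg) and day 36 SCGB3A2+ (36 pos) array, with points for arrays and bars for group means. SCGB3A2, SCGB1A1 and SFTPA1 are highest in SCGB3A2+ cells, ALB and DUSP6 are alike in day 22 and both day 36 sorts, NKX2-1 and CPM are lowest in SCGB3A2- cells, and LEF1 and CRH are high at day 15 only among the groups shown.

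Of 31 secretory airway genes 19 rose, 1 fell and 11 did not pass, with a median of 1.86. The antiprotease SLPI stood at 2.80 and 2.52 at day 15 and at 10.64, 10.34 and 10.25 in SCGB3A2+ cells (7.75 ± 0.34), and the chemokine CXCL17 at 3.62 and 3.99 against 10.56, 10.48 and 9.77 (6.47 ± 0.21). The groups were far apart for both genes. MUC1, a membrane mucin, rose by 5.06 ± 0.24 and the transcription factor CEBPD by 3.76 ± 0.18. The member that fell was ALDH1A3, a retinaldehyde dehydrogenase (-1.18 ± 0.20). Among 18 goblet cell and mucin genes 9 rose and 0 fell, with AGR2, which helps fold mucins, at 6.80 ± 0.39, its relative AGR3 at 6.41 ± 0.27 and the mucin MUC13 at 5.31 ± 0.33.

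Alveolar type 2 and surfactant genes had the highest share of increases of the 46 lists counted, with 18 of 21 higher, 0 lower and a median of 4.88. LAMP3, a protein of the lamellar bodies that store surfactant, went from 2.75 and 3.31 to 9.71, 9.22 and 9.86 (6.56 ± 0.27). ABCA3, which pumps lipid into those bodies, went from 3.21 and 3.50 to 8.22, 7.57 and 8.40 (4.71 ± 0.26). SFTPC, the surfactant protein held to be specific to type 2 cells, went from 3.66 and 3.71 to 7.58, 6.87 and 8.09 (3.82 ± 0.40), and the pepsinogen PGC, which fetal type 2 cells also make, rose by 7.47 ± 0.33. In all 4 genes SCGB3A2+ B gave the lowest of the 3 values, and that value was still above both day 15 arrays.

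Of 27 lipid synthesis and transport genes, a list that shares ABCA3 with the one before, 16 rose and 3 fell. The increases included FASN, the fatty acid synthase (2.35 ± 0.14), INSIG1, a feedback regulator of sterol synthesis (2.31 ± 0.14), and LPCAT1, which makes surfactant phosphatidylcholine (1.95 ± 0.17). The decreases were those of the apolipoprotein APOE (-2.17 ± 0.19), PCYT1B (-2.30 ± 0.30) and CHKA (-0.48 ± 0.15), both enzymes of phosphatidylcholine synthesis. The call of CHKA was lost when day 15 B or C or some other single array was left out, with adjusted p up to 0.212 over all alternatives.

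Of 14 alveolar type 1 genes 7 rose (50%) and 3 fell (21.4%), beside 12.5% and 16.2% of all probe sets. HOPX, a homeodomain protein of type 1 cells and of some progenitors, stood at 4.35 and 4.26 against 8.28, 8.09 and 8.15 (3.87 ± 0.18). CYP4B1, CLIC5, EMP2 and the caveolar protein CAV1 rose by 5.52 ± 0.30, 3.39 ± 0.20, 3.14 ± 0.17 and 2.44 ± 0.21. The decreases were those of SEMA3E, a semaphorin (-2.60 ± 0.42), the kinase anchor AKAP5 (-1.13 ± 0.21) and RTKN2 (-0.71 ± 0.16), the last with adjusted p = 0.0539 when 1 array was left out.

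The lung progenitor factors NKX2-1, FOXA1 and FOXA2 and the surface proteins CD47 and CPM moved far less than the genes with the largest increases. Those genes were chosen by their size of change, so nothing is read from that contrast. NKX2-1 stood at 6.73 and 6.83 at day 15 and at 7.69, 7.57 and 7.63 in SCGB3A2+ cells (0.85 ± 0.22, adjusted p = 0.0133), and it did not pass without day 15 B (0.0882) or C (0.0591). SFTA3, its neighbour on chromosome 14, rose more, from 6.71 and 6.97 to 10.02, 9.86 and 10.09 (3.15 ± 0.17). FOXA2, an endoderm pioneer factor, stood at 7.40 and 7.45 against 6.98, 7.09 and 6.99 (-0.41 ± 0.11, adjusted p = 0.0183). The related FOXA1 stood at 8.26 and 8.58 against 7.42, 7.69 and 7.54 (-0.87 ± 0.26, adjusted p = 0.0268). All 4 genes had groups that did not overlap, but so did many probe sets, 24.2% of all upward and 27.8% downward. FOXA2 did not pass in a fit of only the arrays compared (adjusted p = 0.0535) or without day 15 B (0.0758), day 15 C (0.116) or SCGB3A2+ A (0.0519), and FOXA1 not without day 15 B (0.0566), day 15 C (0.192), SCGB3A2+ A (0.0766) or SCGB3A2+ C (0.059).

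CD47, the basis of the day 15 sort, was not lower in day 36 SCGB3A2+ cells than at day 15 (8.48 and 8.40 against 8.84, 8.75 and 8.60, a difference of 0.29 ± 0.17, adjusted p = 0.252, 95% interval -0.08 to 0.66). CPM, a carboxypeptidase on the surface of lung progenitors, had values of 9.41 and 9.60 against 9.01, 9.26 and 9.35 (-0.30 ± 0.19, adjusted p = 0.288, 95% interval -0.71 to 0.11). SOX2, the factor of proximal airway epithelium, differed by -0.30 ± 0.33 (95% interval -1.02 to 0.42), and SOX9, that of the distal tip, by -0.11 ± 0.21 (95% interval -0.57 to 0.36). None of the 4 genes passed between SCGB3A2+ cells and day 15, and the intervals of CD47, CPM and SOX9 lay within a 2-fold change in either direction. On the SCGB3A2- arrays CD47 (7.20, 7.23 and 7.38), CPM (6.48, 6.76 and 6.75) and SOX2 stood below both day 15 arrays, and SOX9 above them.

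Of the 27 genes on the early lung and tip list 7 rose (25.9%) and 11 fell (40.7%), beside 12.5% and 16.2% of all probe sets. The ligand SHH was the member with the largest decrease, from 9.68 and 9.61 to 5.83, 6.09 and 6.46 (-3.52 ± 0.34). The Iroquois factors IRX1 (-2.21 ± 0.21) and IRX2 (-1.55 ± 0.18) and HMGA2, a chromatin protein of immature tissue (-1.41 ± 0.15), fell too. Besides SFTA3 and NKX2-1, the increases included the FGF-responsive factors ETV4 (1.89 ± 0.25) and ETV5 (1.53 ± 0.20) and the ETS factor ELF5 of the distal lung tip (1.37 ± 0.28). The number of increases was 4 without day 15 B, and that of decreases 7 without day 15 C or SCGB3A2+ A.

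Among signalling pathways, most of the canonical Wnt targets listed fell and most of the FGF feedback genes rose. LEF1, a Wnt effector and target, went from 7.35 and 7.42 to 1.52, 2.04 and 1.365 (-5.75 ± 0.22), and LGR5, the R-spondin receptor that Wnt induces, from 6.35 and 5.86 to 2.31, 3.10 and 1.96 (-3.65 ± 0.35). In both, the SCGB3A2+ levels were near the lower end of the scale, like those at day 0 (1.54 and 1.88 for LEF1 and 1.87 and 2.46 for LGR5). The means at day 22 and in SCGB3A2- cells were low too, at 2.64 and 1.79 for LEF1 and 1.83 and 2.41 for LGR5. Nothing is therefore read from the likeness to day 0. Of the 14 Wnt targets 9 fell and 2 rose (median -1.20), with BAMBI at -2.63 ± 0.25 and ZNRF3, which removes Wnt receptors, at -2.19 ± 0.14. The increases were LGR4, a relative of LGR5 that other inputs also control (3.00 ± 0.19), and the cyclin CCND1 (1.27 ± 0.14). Of 28 Wnt ligands and secreted inhibitors 5 rose and 4 fell, shares near those of all probe sets, including the inhibitors SFRP5 (3.59 ± 0.17) and FRZB (2.09 ± 0.28), the potentiator RSPO3 (-3.73 ± 0.28) and the ligand WNT11 (-1.94 ± 0.23).

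Of 14 FGF and ERK feedback genes 10 rose and 2 fell (median 1.46). DUSP6, an ERK phosphatase induced by ERK activity, stood at 4.61 and 4.96 at day 15 and at 9.01, 9.33 and 9.10 in SCGB3A2+ cells (4.36 ± 0.17). DUSP4 (4.07 ± 0.19), SPRY1 (2.29 ± 0.15) and SPRY2 (2.18 ± 0.14), further negative regulators, rose with it. IL17RD (-3.29 ± 0.18) and PHLDA1 (-2.24 ± 0.19) went the other way, and IL17RD, like the genes that rose, restrains FGF signalling.

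Of 17 Hedgehog pathway genes 6 fell (35.3%) and 1 rose (5.88%), beside 16.2% and 12.5% of all probe sets. Next to the ligand SHH, the decreases included the signal transducer SMO (-1.88 ± 0.18), the receptor PTCH1, itself a target of the pathway (-0.85 ± 0.17), the co-receptor CDON (-2.02 ± 0.35) and the inhibitor SUFU (-0.61 ± 0.14). The increase was that of the transcription factor GLI3 (1.14 ± 0.28), which did not pass without day 15 C (adjusted p = 0.121). Of 17 TGF-beta ligands, receptors and targets 7 fell (41.2%) and 3 rose (17.6%, near the 12.5% of all probe sets). The ligands TGFB3 (-3.93 ± 0.27) and TGFB1 (-1.82 ± 0.23), the latent binding protein LTBP1 (-2.89 ± 0.24) and the transducer SMAD3 (-1.94 ± 0.14) fell, whereas the receptors TGFBR2 (1.62 ± 0.19), TGFBR3 (1.32 ± 0.33) and TGFBR1 (0.89 ± 0.17) rose. The call of TGFBR3 was lost without day 15 B (adjusted p = 0.16).

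BMP genes moved both ways, with 6 of 22 higher (27.3%) and 5 lower (22.7%), beside 12.5% and 16.2% of all probe sets. The target ID4 (2.40 ± 0.20) and the antagonist NOG (1.62 ± 0.20) rose, and the antagonists FST (-3.33 ± 0.23) and CHRDL1 (-2.06 ± 0.19) and the ligand BMP7 (-2.71 ± 0.25) fell. Of 23 Notch genes 4 fell, among them DLL1, a ligand (-1.62 ± 0.18), the receptor NOTCH3 (-1.51 ± 0.14) and the target HES1 (-1.06 ± 0.20), and 2 rose, with the target HEY1 at 1.997 ± 0.27. These shares, 17.4% lower and 8.70% higher, are near or below the 16.2% and 12.5% of all probe sets and are no result about the list. Of 20 retinoic acid genes 4 rose (20%) and 5 fell (25%), with the crosslinking enzyme TGM2 at 2.89 ± 0.29 and the binding protein CRABP2 at -1.82 ± 0.19. With so few genes, little is read from these shares beside those of all probe sets. The Notch count of increases was 1 in place of 2 without day 15 B, day 15 C, SCGB3A2+ B or SCGB3A2+ C.

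The largest decreases were spread over several kinds of genes. CRH, the gene of corticotropin-releasing hormone, had values of 8.09 and 7.45 at day 15 and of 2.08, 1.89 and 2.09 in SCGB3A2+ cells (-5.75 ± 0.18). RFX6, a factor of gut and pancreatic endocrine cells, went from 7.10 and 7.81 to 2.43, 2.52 and 2.59 (-4.94 ± 0.68), and the adhesion protein CDH2, or N-cadherin, from 10.15 and 9.85 to 4.91, 6.16 and 5.68 (-4.41 ± 0.33). The groups were far apart for each. LGI2, NDNF, the protease ADAMTS16, the Ras activator RASGRF2, the carboxypeptidase CPA6, the cadherin FAT3, the oxidase NOX4, the kinase DCLK2 and the sulfatase SULF2 fell by 5.25, 4.88, 4.81, 4.80, 4.71, 4.68, 4.53, 4.41 and 4.37 on the log2 scale. SULF2 and the increased SULF1 act on the same sugar chains. For all 15 of the genes with the largest decreases the day 0 mean lay below the day 15 mean, which was so for 3 of the 15 with the largest increases. Among all probe sets lower by at least 2-fold it was so for 1008 of 1489 and among those higher for 637 of 1397, and the day 15 arrays that define the difference also enter this count, so nothing is read from it.

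Of 29 matrix genes 17 fell, 2 rose and 10 did not pass, with a median of -1.02. COL1A1, a chain of type I collagen, went from 8.11 and 7.79 to 4.80, 4.59 and 4.53 (-3.31 ± 0.14), and LAMA1, a laminin chain of early basement membranes, from 8.96 and 9.28 to 5.19, 5.29 and 5.86 (-3.67 ± 0.20). The fibrillin FBN2 (-4.50 ± 0.28), COL18A1 (-2.33 ± 0.17) and COL3A1 (-1.89 ± 0.18) fell too, and the increases were COL12A1 (2.03 ± 0.45) and NID2 (0.83 ± 0.24). Of 23 mesenchyme genes 6 fell (26.1%) and 1 rose (4.35%), beside 16.2% and 12.5% of all probe sets. The decreases included POSTN (-3.25 ± 0.39) and the smooth muscle genes TAGLN (-3.31 ± 0.28) and CNN1 (-2.51 ± 0.28), and the increase was the proteoglycan LUM (2.76 ± 0.38). The mean level of that list was 3.28 and 3.40 on the day 15 arrays and 2.75 to 2.88 on the SCGB3A2+ ones, and the part of a few mesenchymal cells in the matrix genes was not tested. COL12A1 and NID2 were 1 increase in place of 2 without day 15 B or SCGB3A2+ C.

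Of 34 axon guidance genes, which also shape branching epithelia, 14 fell (41.2%) and 7 rose (20.6%), beside 16.2% and 12.5% of all probe sets. SEMA3D (-3.72 ± 0.23), EFNB2 (-2.58 ± 0.31), NTN4 (-2.40 ± 0.20) and ROBO1 (-1.75 ± 0.14) were lower. The semaphorin receptors NRP1 (1.98 ± 0.16), PLXND1 (2.005 ± 0.25) and PLXNA2 (1.49 ± 0.21) were higher, and the ephrin EFNA1 by 0.79 ± 0.25 (adjusted p = 0.0342). Increases numbered 4 in a fit of only the arrays compared and without day 15 B, and the call of EFNA1 was lost in both (adjusted p = 0.0864 and 0.0674), without day 15 C (0.224) and without SCGB3A2+ A (0.0859). Among 27 junction and keratin genes 8 rose and 8 fell, 29.6% each way. The lung claudin CLDN18 stood at 4.99 ± 0.44 and CLDN1 at 2.12 ± 0.21, but CLDN6, a claudin of embryonic epithelium, at -1.06 ± 0.12 and the scaffold TJP1 at -1.03 ± 0.12. Without day 15 C 4 rose.

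**Figure D3:**
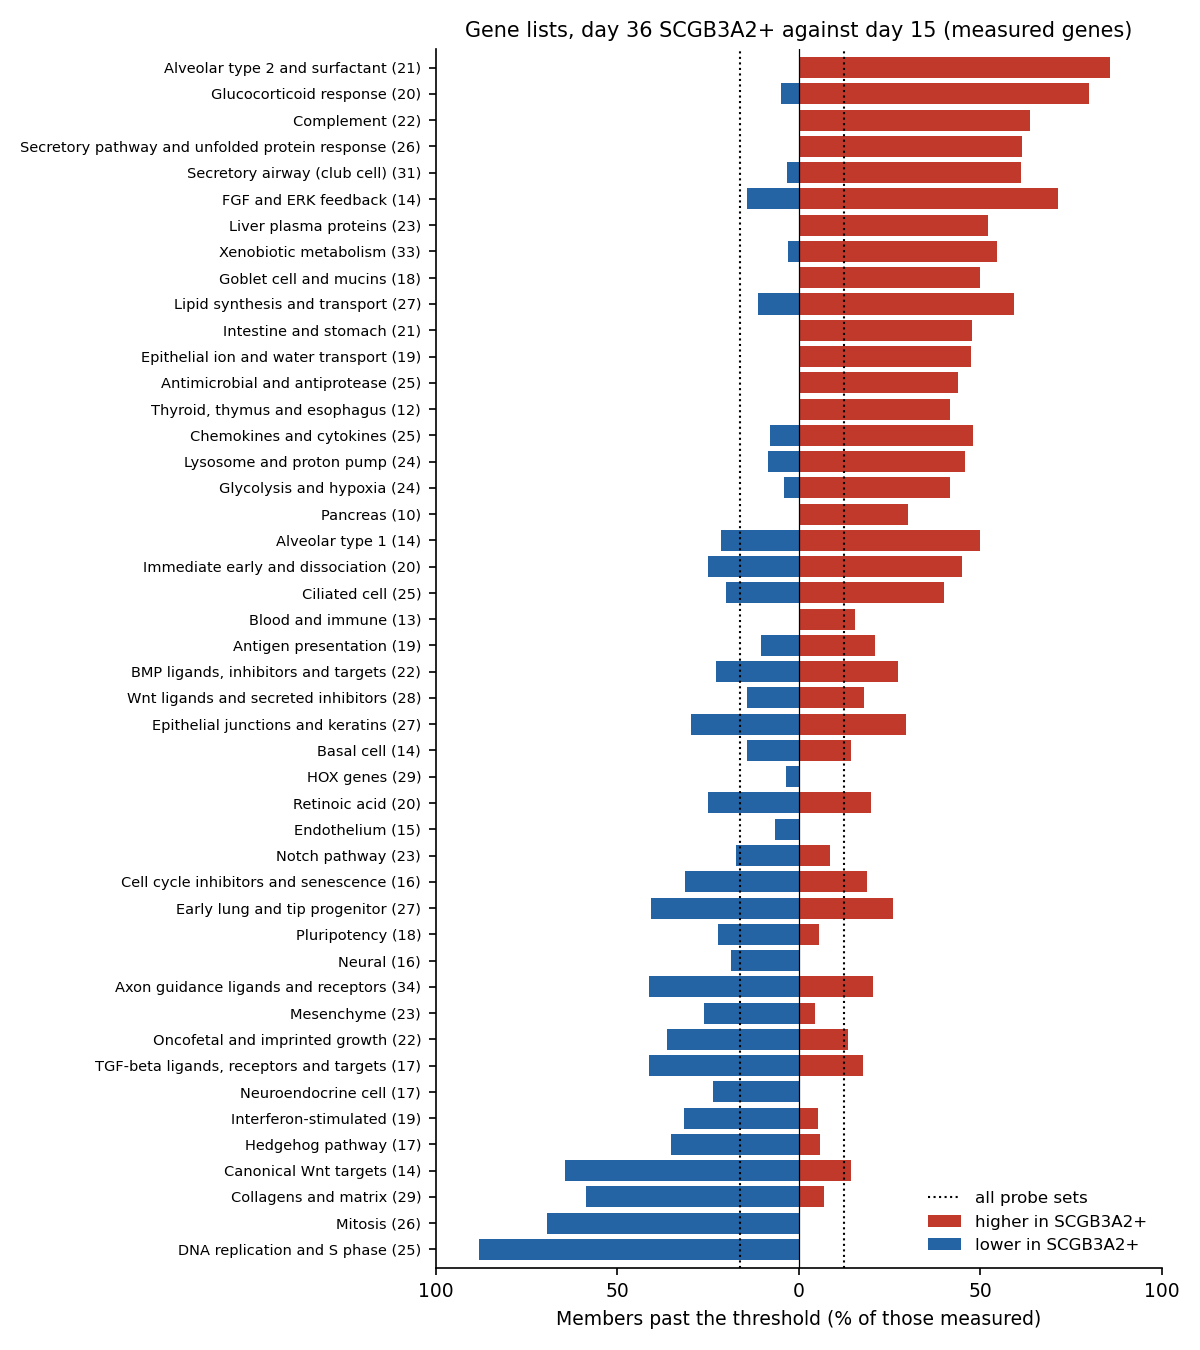
Share of the measured genes of each of the 46 lists (x axis, percent) that were higher (red, to the right) or lower (blue, to the left) in SCGB3A2+ cells than at day 15 at adjusted p under 0.05, with the number measured in brackets and the shares over all probe sets (12.5% and 16.2%) dotted. Alveolar type 2 and glucocorticoid response genes lead the increases, and S phase, mitosis, matrix and Wnt target genes the decreases.

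Most of the cell cycle genes listed were lower in SCGB3A2+ cells. Of 25 DNA replication and S phase genes 22 fell and 0 rose (median -0.94), and of 26 mitosis genes 18 fell and 0 rose (median -0.98). CENPF, a kinetochore protein of dividing cells, stood at 8.25 and 8.09 against 5.16, 6.69 and 6.37 (-2.10 ± 0.33), and MKI67, the Ki-67 proliferation marker, at 7.64 and 7.78 against 6.23, 7.06 and 6.96 (-0.96 ± 0.21, adjusted p = 0.0048). SCGB3A2+ A was the lowest array for both, and no array of that group reached the day 15 levels. MCM10 (-1.58 ± 0.21), MCM5 (-1.51 ± 0.21) and MCM2 (-1.50 ± 0.22), which license and start replication, and BUB1B (-1.94 ± 0.22), PLK1 (-1.60 ± 0.25) and AURKB (-1.42 ± 0.19), which run mitosis, fell too. The mean level of the mitosis list was 6.71 and 6.82 at day 15 and 5.20, 6.14 and 5.88 on SCGB3A2+ A, B and C.

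Of 16 cell cycle inhibitors 3 rose (18.8%) and 5 fell (31.2%), beside 12.5% and 16.2% of all probe sets. CDKN1B (1.04 ± 0.16) and the pocket protein RBL2 (1.11 ± 0.15) were higher, and CDKN2B (-1.996 ± 0.20) and SESN1 (-1.72 ± 0.15) lower. Of 22 oncofetal and imprinted growth genes 8 fell (36.4%) and 3 rose (13.6%, near the 12.5% of all probe sets). The fetal RNA-binding proteins LIN28A (-3.22 ± 0.42), LIN28B (-1.78 ± 0.24) and IGF2BP1 (-1.33 ± 0.17) fell, and the growth factor IGF2 rose by 2.14 ± 0.23. The number of increases on that list was 1 without day 15 C.

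Host defence genes were among those that rose. Of 25 antimicrobial and antiprotease genes 11 rose and 0 fell, including, beside SLPI, the elastase inhibitor PI3 (6.49 ± 0.32), lysozyme, LYZ (5.96 ± 0.40), and S100P (4.52 ± 0.30). Of 22 complement genes 14 rose and 0 fell. C3, the central component, went from 2.50 and 2.48 to 9.997, 8.85 and 9.40 (6.92 ± 0.27). C6 (4.56 ± 0.29) belongs to the membrane attack complex, and C4BPA (4.47 ± 0.27), CFI (3.99 ± 0.25) and CD55 (2.40 ± 0.13) are inhibitors, so that components and inhibitors were both higher.

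Of 25 chemokine and cytokine genes 12 rose and 2 fell, with CCL20 at 3.78 ± 0.22, CXCL2 at 2.37 ± 0.25 and IL18 at 2.28 ± 0.31, against the monocyte attractant CCL2 at -2.25 ± 0.40 and IL1A at -1.31 ± 0.22. Interferon-stimulated genes went the other way for 6 of 19 (31.6%), with 1 higher (5.26%), beside 16.2% and 12.5% of all probe sets. EPSTI1 fell from 8.02 and 7.58 to 3.03, 3.39 and 3.37 (-4.54 ± 0.20), MX1 by 1.84 (SE 0.33) and ISG15 by 0.95 (SE 0.19), and OAS1 was higher by 1.58 ± 0.47. The decreases numbered 3 without day 15 B, and the call of OAS1 was lost in a fit of only the arrays compared (adjusted p = 0.0657) and without day 15 C (0.229), SCGB3A2+ A (0.0674) or SCGB3A2+ C (0.0788). Antigen presentation genes changed for 6 of 19, a share near the 28.7% of all probe sets, with the class I genes TAPBP (1.44 ± 0.14) and B2M (0.85 ± 0.13) higher and the class II chaperone CD74 lower (-3.10 ± 0.41).

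Of 19 genes of ion and water transport 9 rose and 0 fell. The 3 subunits of the epithelial sodium channel, which absorbs fluid from the airway surface, all rose, SCNN1A from 5.11 and 4.95 to 9.34, 9.26 and 9.55 (4.36 ± 0.18), SCNN1B by 4.68 ± 0.24 and SCNN1G by 3.69 ± 0.31. The water channel AQP4 rose from 2.67 and 3.50 to 9.61 or more on each SCGB3A2+ array (6.75 ± 0.31). CFTR, the chloride channel, did not pass (5.44 and 6.31 against 6.55, 6.87 and 6.49, a difference of 0.76 ± 0.29, adjusted p = 0.0754). Its groups did not overlap, which was so upward for 24.2% of all probe sets. It passed without either day 22 array (adjusted p = 0.0319 each), and without day 15 C its difference was 1.195.

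Of 20 glucocorticoid response genes 16 rose and 1 fell (median 2.42), the second highest share of increases among the lists. FKBP5, which glucocorticoid receptor induces in most cell types, stood at 4.05 and 4.35 at day 15 and at 8.80, 8.79 and 8.84 in SCGB3A2+ cells (4.61 ± 0.20). The liver enzyme TAT (6.07 ± 0.25), the amine oxidase MAOA (5.73 ± 0.22) and the antiprotease SERPINA3 (5.18 ± 0.22) rose as well, and CRISPLD2 fell by 1.68 (SE 0.17). The labels name no hormone in the media, and no part of one was tested. Of 33 genes of xenobiotic metabolism 18 rose and 1 fell, the increases including the quinone reductase NQO1 (3.21 ± 0.22), the carbonyl reductase CBR1 (2.71 ± 0.14) and CYP1B1, a target of the aryl hydrocarbon receptor (2.58 ± 0.22). The decrease on that list was AHRR (-0.46 ± 0.16, adjusted p = 0.0447), which did not pass in 10 of the 18 alternatives (adjusted p up to 0.344), and the number of decreases ran from 0 to 3.

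Of 26 secretory pathway genes 16 rose and 0 fell (median 0.54), with XBP1, a factor of secretory cells, at 2.73 ± 0.17, CREB3L1 at 1.96 ± 0.20 and HERPUD1 at 1.87 ± 0.15. Of 24 lysosome and proton pump genes 11 rose and 2 fell, with the lipase LIPA at 2.22 ± 0.16 and the protease CTSD at 1.47 ± 0.17 higher and CTSB at -0.65 ± 0.14 lower. Of 24 glycolysis and hypoxia genes 10 rose and 1 fell. The mean level of that list was 5.94 and 5.83 at day 15 and 7.20, 7.18 and 6.495 on SCGB3A2+ A, B and C. The oxygen-regulated factors EPAS1 (4.60 ± 0.18) and HIF3A (3.26 ± 0.18) and the hydroxylase EGLN3 (3.72 ± 0.49) rose, and the peptide ADM fell by 1.51 (SE 0.29). EGLN3 stood at 6.31, 6.66 and 4.78 on SCGB3A2+ A, B and C, all above its day 15 values of 2.11 and 2.27. The lysosomal decreases numbered 0 without day 15 B and 1 without SCGB3A2+ B, and the hypoxia decreases 2 with an intensity trend, with quantile normalization or without SCGB3A2+ B.

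Of 20 immediate early and dissociation genes, which cell sorting can raise, 9 rose (45%) and 5 fell (25%), beside 12.5% and 16.2% of all probe sets. FOS (2.20 ± 0.18), DUSP1 (1.87 ± 0.18), KLF4 (1.82 ± 0.22) and ZFP36 (1.67 ± 0.15) were higher, while NR4A1 (-1.42 ± 0.18), ATF3 (-1.14 ± 0.16), EGR3 (-0.94 ± 0.18) and IER3 (-0.93 ± 0.16) were lower. Both groups were sorted, and the part of the sort was not tested.

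Genes of other organs were measured to see which cells the sort may hold. Of 23 liver plasma protein genes 12 rose and 0 fell, and the mean level of the list was 3.48 and 4.14 at day 15 and 6.59 to 6.78 on the SCGB3A2+ arrays. Apart from ALB, the increases included the fibrinogen chains FGG (7.66 ± 0.26), which stood also on the alveolar type 2 list, and FGA (6.35 ± 0.40), ITIH2 (7.55 ± 0.17), SERPINA1 (5.87 ± 0.23) and the fetal protein AFP. AFP went from 3.19 and 4.91 to 9.41, 9.91 and 10.49 (5.89 ± 0.42). Of 21 genes of intestine and stomach 10 rose and 0 fell, with a mean level of 2.96 and 3.20 against 4.86 to 5.68. TFF1, a trefoil peptide of stomach and airway mucus, went from 3.08 and 2.27 to 9.67, 8.61 and 10.39 (6.88 ± 0.42), and the protease CTSE rose by 6.82 ± 0.36. The hindgut factor CDX2 stood at 4.64 and 5.66 against 4.67, 4.12 and 4.47 (-0.73 ± 0.51, adjusted p = 0.355). The part of liver-like or gut-like cells in these increases was not tested.

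The endothelial, blood and neural lists had mean levels between 2.35 and 3.17 on the day 15 and SCGB3A2+ arrays, although single members stood higher. Of 15 endothelial genes 1 fell (6.67%, below the 16.2% of all probe sets), SOX17 (-1.37 ± 0.17), which endoderm also uses, and 0 rose. Their mean level was 2.58 and 2.59 at day 15 against 2.63 to 2.73. Of 13 blood and immune genes 2 rose, LYZ and the lysosomal protein CD68 (3.40 ± 0.32), neither of them restricted to blood, a share near the 12.5% of all probe sets. Neural genes fell for 3 of 16, with the microtubule protein MAP2 at -2.46 ± 0.20, neuroendocrine genes for 4 of 17, with UCHL1 at -2.06 ± 0.26 beside CRH, and neither list had an increase. The neural share of 18.8% was near the 16.2% of all probe sets, and the neuroendocrine share was 23.5%. MAP2 stood at 7.87 and 7.62 at day 15, so it was not low there. The mean level of the neuroendocrine list was 4.003 and 3.85 at day 15 and 3.15, 4.14 and 3.29 on SCGB3A2+ A, B and C, so that SCGB3A2+ B alone of its group lay above both day 15 arrays. Of 18 pluripotency genes 4 fell (22.2%) and 1 rose (5.56%), few genes to set beside the shares over all probe sets. POU5F1 was near the lower end of the scale in both groups (1.81 and 1.48 against 1.80, 1.98 and 1.62, adjusted p = 0.688). HOX genes changed for 1 of 29 (3.45%, beside 28.7% of all probe sets), HOXA2 (-1.35 ± 0.36, adjusted p = 0.0142). The neural decreases numbered 1 without day 15 B, the pluripotency ones 2 without day 15 C, the HOX ones 2 without day 15 B and 0 without day 15 C, and 2 neuroendocrine genes rose without SCGB3A2+ A.

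Thyroid, thymus and esophagus genes rose for 5 of 12, with the keratin KRT13 of squamous and hillock-type airway epithelium at 4.75 ± 0.54, pancreas genes for 3 of 10, with the factor ONECUT1 at 3.13 ± 0.23, and neither list had a decrease. The former count was 3 without day 15 B and 2 without day 15 C. Of 14 basal cell genes 2 rose, the laminin chain LAMB3 (3.50 ± 0.30) and the keratin KRT15 (1.14 ± 0.37), and 2 fell, DST (-2.28 ± 0.19) and the integrin ITGB4 (-0.99 ± 0.26), 14.3% each way and so near the shares over all probe sets. The basal counts were 1 each without day 15 B or C, and 5 rose without SCGB3A2+ A.

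Ciliated cell genes differed among the SCGB3A2+ arrays themselves. Of 25 such genes 10 rose, 5 fell and 10 did not pass, and the increases numbered 4 without day 15 B or C and 5 in a fit of only the arrays compared. RSPH1, of the radial spokes that regulate beating, stood at 2.50 and 2.02 at day 15 and at 3.02, 4.37 and 3.72 on SCGB3A2+ A, B and C (1.44 ± 0.30), and it did not pass without day 15 C (adjusted p = 0.0517). The dynein DNAH5 stood at 4.14 and 3.67 against 5.25, 5.25 and 4.60 (1.12 ± 0.21). FOXJ1, the master factor of motile cilia, stood at 4.71 and 4.58 against 4.33, 5.46 and 4.45 (0.10 ± 0.29, adjusted p = 0.863). SCGB3A2+ B was the only array of its group above day 15 for FOXJ1, and the difference was -0.26 without it.

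The mean level of the ciliated list was 3.58 and 3.56 at day 15 and 3.64, 4.61 and 3.81 on SCGB3A2+ A, B and C. On SCGB3A2+ B 10 of the 25 genes lay at least 2-fold above the mean of the other 2 arrays of the group, and on A and C 0 did. Over all probe sets 228 were at least 2-fold above on B, 111 on A and 117 on C. The decreases of the list were those of TPPP3 (6.29 and 7.38 against 3.62, 6.10 and 4.28), MYB (-1.58 ± 0.27), the regulatory factors RFX2 (-0.75 ± 0.14) and RFX3 (-0.73 ± 0.20), and the tubulin TUBB4B (-0.64 ± 0.13). They numbered 3 without day 15 C, where TPPP3 (adjusted p = 0.156) and RFX3 (0.129) did not pass.

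**Figure D4:**
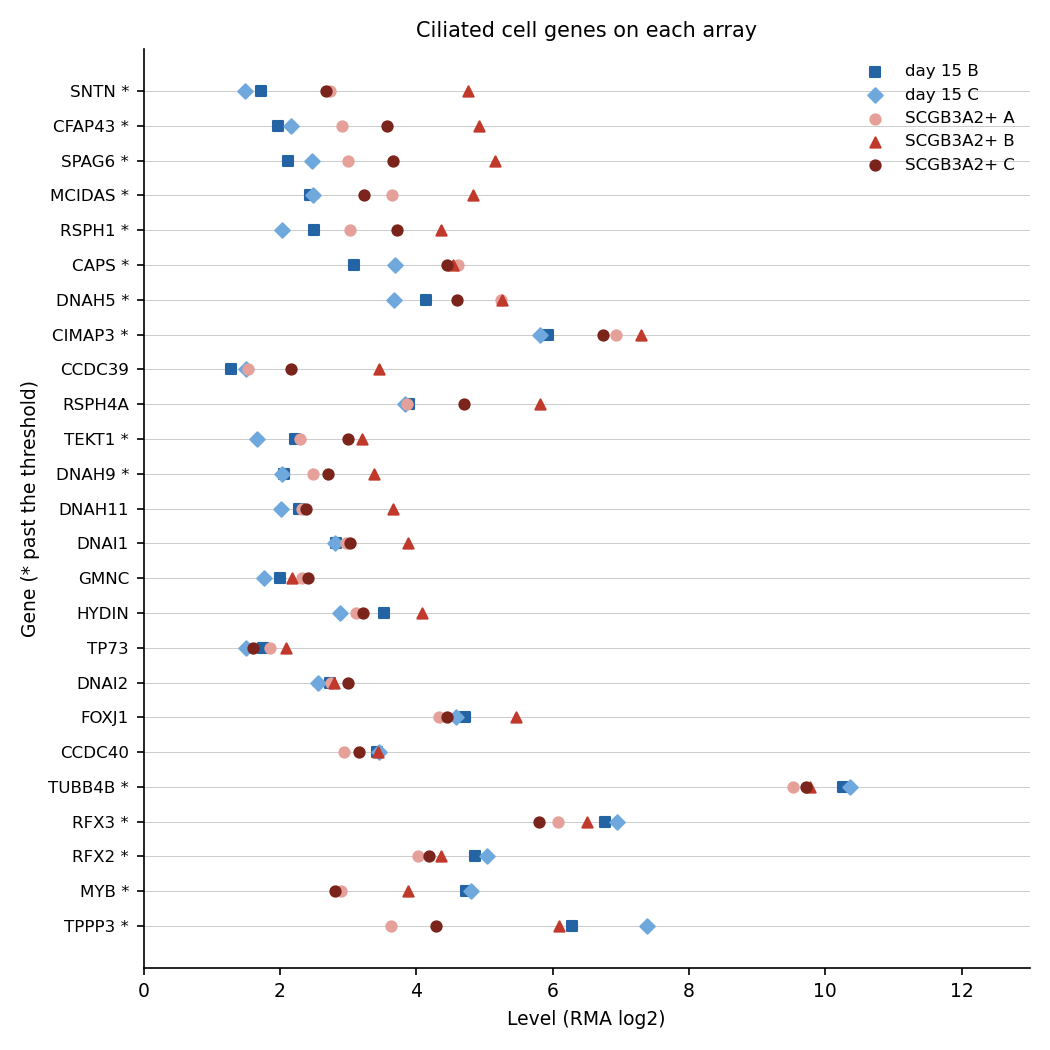
RMA log2 level (x axis) of the 25 ciliated cell genes (y axis, in order of their difference, a star for those past the threshold) on the 2 day 15 and 3 SCGB3A2+ arrays. SCGB3A2+ B (triangles) is the highest array for RSPH1 and FOXJ1, and TPPP3, MYB, RFX2, RFX3 and TUBB4B lie below day 15 on all 3 SCGB3A2+ arrays.

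The other groups give levels between and beside those of the 2 groups compared. The labels name no sort for day 22, unlike day 15 and day 36. Each step by way of day 22 therefore mixes time with sorting, and these cannot be told apart. The step from day 15 to day 22 and the step from day 22 to SCGB3A2+ share the day 22 arrays, so they are given side by side and not correlated. For the 15 largest increases the median differences of those steps were 4.90 and 3.01, and for the 15 largest decreases -3.98 and -0.76. Over all probe sets changed by at least 2-fold they were 1.09 and 0.57 for those higher and -0.97 and -0.50 for those lower. All 4 sets were chosen by the sum of the 2 steps, and the sets of 15 lie within the larger ones. Nothing is therefore read from which step had the larger median. SFTPB differed by 8.74 and then by 0.41, ALB by 8.27 and then by -0.15, and LEF1 by -4.74 and then by -1.002. HP differed by 1.02 and then by 8.003, SCGB1A1 by 2.25 and then by 5.30 and SLPI by 3.69 and then by 4.06. FBN2 and SULF2 differed by -1.32 and -1.31 in the first step and by -3.18 and -3.06 in the second, unlike CRH (-5.68 and -0.07).

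The SCGB3A2- sort of the same day was set against the SCGB3A2+ sort to see which of the named genes differ between them, where 5440 probe sets passed (22.9%), with 10.1% higher and 12.8% lower in SCGB3A2+ cells. Of the 15 largest increases 10 were higher in SCGB3A2+ than in SCGB3A2- cells, 1 was lower (ITIH2, -0.85 ± 0.15) and 4 did not pass. Of the 15 largest decreases 6 were lower, 0 higher and 9 did not pass. The SCGB3A2+ arrays that chose these genes also enter this comparison, and SCGB3A2 itself is among the increases. Nothing is therefore read from these counts against the shares over all probe sets. SCGB1A1 stood at 4.54, 6.40 and 4.42 on the SCGB3A2- arrays, 6.04 ± 0.45 below SCGB3A2+ (adjusted p = 4.27e-06), while ALB (10.54, 11.40 and 11.54) and C3 (9.45, 9.61 and 9.38) differed by -0.18 ± 0.23 and -0.07 ± 0.24 and did not pass. Of the lists, alveolar type 2 genes were higher in SCGB3A2+ cells for 17 of 21, glucocorticoid response genes for 16 of 20 and secretory airway genes for 14 of 31. Liver genes were lower for 12 of 23, mitosis genes for 21 of 26 and S phase genes for 21 of 25, so that the 2 sorts of day 36 differ in proliferation genes too.

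SFTA3 and CYP1B1 were higher in SCGB3A2+ cells and lower in SCGB3A2- cells than at day 15, and so was NKX2-1 (4.18, 4.42 and 3.79 on the SCGB3A2- arrays). SOX9 stood at 8.58, 8.66 and 8.39 and CFTR at 8.72, 8.87 and 8.79 in SCGB3A2- cells, and SCGB3A2+ minus SCGB3A2- was -2.17 ± 0.19 for SOX9 and -2.16 ± 0.26 for CFTR.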

How the data were processed

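Per the labels' protocols, RNA was extracted by QIAzol and RNeasy, labelled with the WT Plus kit and hybridised to 12 Affymetrix arrays. The authors deposited log2 values of 23786 probe sets, which they made by RMA with affy 1.36.1 in R 2.15.1, per the submitters' processing notes. RMA makes the distributions of arrays nearly alike, so a change in total RNA per cell cannot be seen, and differences between low values shrink. No call above background could be made without probe-level signals, which were not used here. The platform annotation named 22458 probe sets by 1 symbol each and 0 by several, and the 1328 without a symbol are not named. The sources used here give no annotation release. Promoter sequences were taken from RefSeq (GRCh38.p14). The number of arrays limits the precision.

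All 12 arrays entered a single limma 3.58.1 fit in R 4.3.3 (lmFit and eBayes, 5 group means, with 7 residual degrees of freedom and 4.43 from the prior). All tests were two-sided, and p was adjusted by Benjamini-Hochberg over all probe sets, with a threshold of 0.05. The comparison, the 46 gene lists (1059 entries, 984 with a probe set, 937 distinct genes, 1 matched by an older symbol) and the rule for named genes were chosen with earlier results of these data known, so a list's direction is a description and no set test was run. The rule named the 15 largest increases and 15 largest decreases among characterised genes whose arrays did not overlap, from each list the up to 5 members of smallest adjusted p, members that passed against most of their list, and a fixed set of markers. Not every gene that the rule takes is printed. Replicate letters were checked for pairing by correlating deviations from the group means. Same-lettered day 15 and SCGB3A2+ arrays correlated at 0.0575 (B) and 0.059 (C), and pairing was not established. Same-lettered arrays of the day 36 sorts correlated at 0.104, 0.124 and 0.111 (A, B and C), so letters may pair those. The main fit held no term for the letter, so the differences given between the sorts are unpaired. The letter entered only in the replicate block described below. The fitting script was tested on simulated data.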

Additional observations from a re-analysis of the deposited data

Results flagged for a closer look

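For 6 of the genes named here the SCGB3A2+ and the SCGB3A2- sort each passed against day 15 in opposite directions. The difference between the sorts, in which the shared day 15 arrays cancel, passed as well. Many named genes were chosen by their difference from day 15, and the share over all probe sets was not counted. The SCGB3A2+ calls of NKX2-1 and EFNA1 against day 15 did not hold under all alternatives, as given above. SFTA3 differed from day 15 by 3.15 ± 0.17 in SCGB3A2+ and by -1.81 ± 0.17 in SCGB3A2- cells, a difference between the sorts of 4.96 ± 0.15 (limma adjusted p = 1.93e-08), and the 3 arrays of either sort lay on their own side of both day 15 arrays. For CYP1B1 the values were 2.58 ± 0.22 and -1.40 ± 0.22, with 3.98 ± 0.19 between the sorts. NKX2-1, the neighbour of SFTA3, differed by 0.85 ± 0.22 and -2.65 ± 0.22, with 3.50 ± 0.20 between the sorts. The dynein gene DNAH5 differed by 1.12 ± 0.21 and -0.81 ± 0.21 (1.94 ± 0.19 between the sorts), and the ephrin EFNA1 by 0.79 ± 0.25 and -0.92 ± 0.25 (1.71 ± 0.22). The immediate early gene IER3 went the other way, at -0.93 ± 0.16 in SCGB3A2+ and 0.72 ± 0.16 in SCGB3A2- cells (-1.65 ± 0.15 between the sorts).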

How the results depend on the processing

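The counts over all probe sets moved by less than 1.5 times under every alternative run. Probe sets higher than at day 15 numbered 2968, and 2030 without day 15 C to 3303 with array weights, and those lower 3851, with 2625 to 4257. With the replicate block, in which the letter is a term although it was not shown to pair these groups, 2804 were higher and 3571 lower, and FOXA1 (adjusted p = 0.0632) and CHKA (0.0622) no longer passed, both of which other alternatives also left short of the threshold. Against SCGB3A2- cells 5440 differed, 4008 to 6374 over the alternatives and 5254 with the block, under which EGLN3 passed (0.0488).

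Of 233 named genes 218 passed, 196 of them under all 18 alternatives. Genes that did not pass changed direction when 1 array was left out, in ranges of -0.258 to 0.31 for FOXJ1, -0.042 to 1.363 for GKN1, -0.009 to 0.324 for POU5F1, -0.616 to 0.013 for SOX2, -0.314 to 0.097 for SOX9 and -2.097 to 0.202 for SST, which passed at its lowest value, without SCGB3A2+ B (adjusted p = 0.00149), and the cause was not tested. A count of list members that rose or fell was taken to move if it changed by more than 1.5 times or between 0 and another number. That was so in 59 cases when 1 array was left out and in 19 under the other settings. Without a day 15 array the lone array left is assumed to vary like the other groups. Values near the lower end of the scale have no measured background here.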

Other observations

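The arrays of the SCGB3A2+ group differed in more than ciliated genes, and the genes of this paragraph were chosen after their values were seen. SST, the gene of somatostatin, stood at 4.04, 8.64 and 4.50 on SCGB3A2+ A, B and C, beside 6.47 and 6.27 at day 15 and 8.27, 9.58 and 8.65 in SCGB3A2- cells, and its difference from day 15 of -0.64 was -2.10 without SCGB3A2+ B (adjusted p = 0.00149). DSC3, a desmosomal cadherin of stratified and basal epithelium, stood at 2.29, 4.93 and 2.63, the serpin SERPINB5 at 1.35, 3.44 and 1.14, and SYT4 of secretory vesicles at 1.75, 4.38 and 1.32. SNTN and CFAP126, both of motile cilia, stood at 2.74, 4.76 and 2.67 and at 4.48, 6.97 and 4.92. DLK1, an imprinted growth gene, had 4.37, 7.24 and 5.40, and its difference from day 15 of 2.39 ± 0.60 did not pass in a fit of only the arrays compared (adjusted p = 0.0547) or without day 15 B (0.0689) or C (0.0504).

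SCGB3A2+ C stood apart for others. The proton pump gene ATP12A was at 6.72, 6.50 and 3.19 on A, B and C, and the imprinted gene NNAT at 6.70, 6.78 and 3.82, while the gastrokines GKN1 (1.26, 1.56 and 4.07) and GKN2 (1.25, 1.39 and 4.63) of stomach mucosa were high on C.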
